A study of Homo sapiens with 6 samples.

Results

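Of the 4546 genes listed in the deposited comparison of mitoxantrone-treated and DMSO-treated A549 cells, 65 carried an annotation term for RNA splicing, mRNA processing or rRNA processing. They were taken by searching the annotation columns for these words, leaving out symbols that begin with ZNF (0 rows) and rows annotated to DNA-templated transcription (7 of the 72 rows with a term). The 65 rows hold 64 gene symbols, because SRSF10 has 2 rows. Splicing terms were present in 42 members, mRNA processing terms in 31 and rRNA processing terms in 13, with 20 shared by the splicing and mRNA processing terms. For 6 members the only match was to the cytoplasmic mRNA processing body, a site of mRNA decay and storage, so the label of splicing and rRNA processing does not describe them: CCRN4L, DCP1A, ATXN2L, TRIM21, APOBEC3D and APOBEC3H.

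A549 is an established human lung adenocarcinoma line. Of the 6 RNA-seq libraries, 3 came from cells given DMSO, the solvent control, at a dilution of 1 in 1000, and 3 from cells given 50 nM mitoxantrone, a poison of DNA topoisomerase II. Both treatments lasted 48 hours. Library totals recovered from the deposited values lay between 20380674 and 21781220 reads with DMSO and between 16681380 and 19352443 with mitoxantrone. No label says whether the 3 libraries of a group were separate cultures, so p-values measure the spread between these libraries, which may be technical. The table holds only genes that had passed an absolute log2 fold change of 1 and an adjusted p of 0.05 in the authors' comparison of these same libraries. A gene that is absent is called not listed here, and its level is not known. Of 9 lung epithelial markers, KRT8, KRT19 and CDH1 were listed, at mean normalized counts with DMSO and mitoxantrone of 63454 and 137474, 582 and 7706, and 653 and 1315. Of 9 leukocyte markers only CD14 was listed, at 23.9 and 99.0 counts, and of 6 endothelial and fibroblast markers CDH5, VWF and COL1A1 were listed, at 0.286 and 8.78, 0.862 and 7.29, and 620 and 267 counts. The part of these markers in the results below was not tested.

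Splicing removes introns from pre-mRNA. It is carried out by the spliceosome, which is built from small nuclear ribonucleoproteins (snRNPs) and joined by SR proteins and hnRNPs that promote or repress the use of splice sites. Ribosomal RNA is transcribed in the nucleolus as one long precursor, which is modified by small nucleolar RNPs (snoRNPs), cut by the small subunit processome and large subunit factors, and trimmed by the RNA exosome.

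RNA processing genes in the table were mostly lower after mitoxantrone. Of the 65 members 52 were lower and 13 higher, and all 65 passed edgeR's quasi-likelihood test, with a largest adjusted p of 0.0067. That test called 100% of the listed genes, which had been selected on these libraries, so passing it singles out no member. Lower calls were 52 of 65 among members and 41.1% of all 4546 listed genes, and higher calls made up 58.9% of the latter. The median log2 fold change was -1.22 over the members and 1.20 over all listed genes. Direction also went with read depth. At mean normalized counts of 50 or more, lower genes were 49 of 57 members (86.0%) and 1442 of 2622 listed genes (55.0%). Among the 8 members under that count 3 were lower and 5 higher. The members were more abundant than the table as a whole, with a median FPKM in DMSO of 9.48 against 1.19 (FPKM scales reads by gene length and library total, so that genes can be compared).

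**Figure D1:**
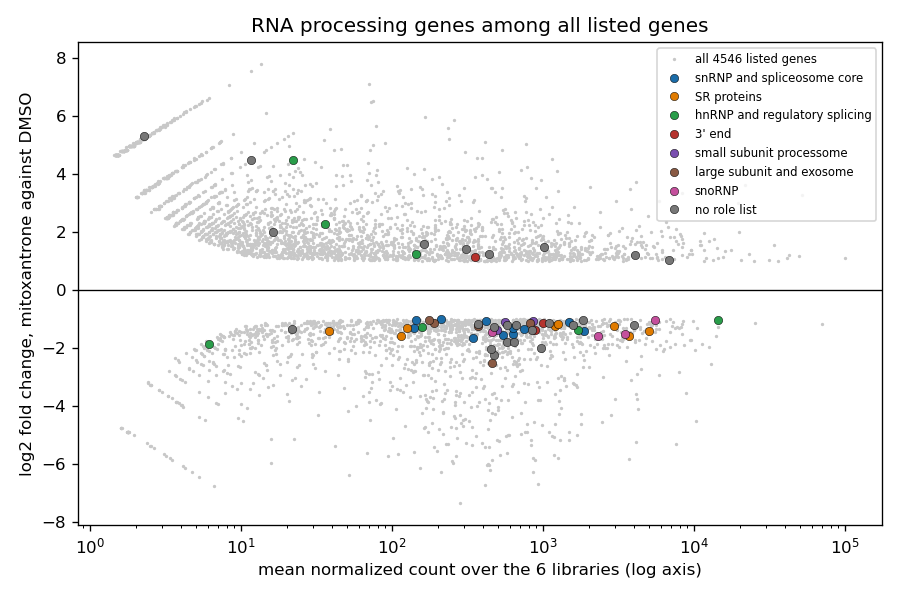
Each listed gene is a grey point, placed by its mean normalized count over the 6 libraries (horizontal log axis) and its log2 fold change with mitoxantrone (vertical axis); the 65 RNA processing members are coloured by role. Most members lie between -1 and -2 at counts above 100, and the 4 highest points among the members have mean counts under 50. The edge at -1 was set by the authors' threshold.

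Most falls of the members were under 4-fold. Of the 52 lower members 49 had a log2 fold change between -2 and -1, and 3 were beyond 4-fold. The edge at -1 was set by the authors' threshold, so smaller falls could not appear. Of the 1869 listed genes that were lower, 556 fell beyond 4-fold. These made up 12.2% of the whole table, a share that also counts the higher genes in its base. The median of the lower members was -1.30 (quartiles -1.53 and -1.15), beside -1.52 for all lower listed genes (quartiles -2.19 and -1.21). The stricter glmTreat test in edgeR, which asks for a change beyond 2-fold, called 80.6% of listed genes (32.1% lower, 48.5% higher) and 54 of 65 members, 42 lower and 12 higher. In 64 of 65 members the 3 libraries of one group did not overlap those of the other, which held for 98.3% of listed genes; the exception was AFF2. As a share of the library total, reads of the members took 0.563% to 0.582% in the DMSO libraries and 0.290% to 0.303% in the mitoxantrone libraries. Reads of all listed genes took 17.1% to 17.3% and 16.9% to 17.2%. The members had been selected for a change in these libraries and most were lower, so their lower share is no separate result. Exact binomial 95% intervals were 0.578% to 0.585% in DMSO 1 and 0.288% to 0.293% in mitoxantrone 1, for counting error only. In bulk samples fewer cells with a transcript and less of it per cell cannot be told apart.

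To place the members by role, 7 gene lists were set beside them. Together they name 462 genes, of which 61 were listed, 56 lower and 5 higher. In 5 lists, the snRNP and spliceosome core, the SR proteins and their kinases, the small subunit processome, the large subunit factors with the exosome, and the snoRNPs, every one of the 47 listed genes was lower. The other 2 lists were mixed. All these genes had passed the authors' threshold, and most genes of each list were not listed, so the counts do not describe whole complexes.

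**Figure D2:**
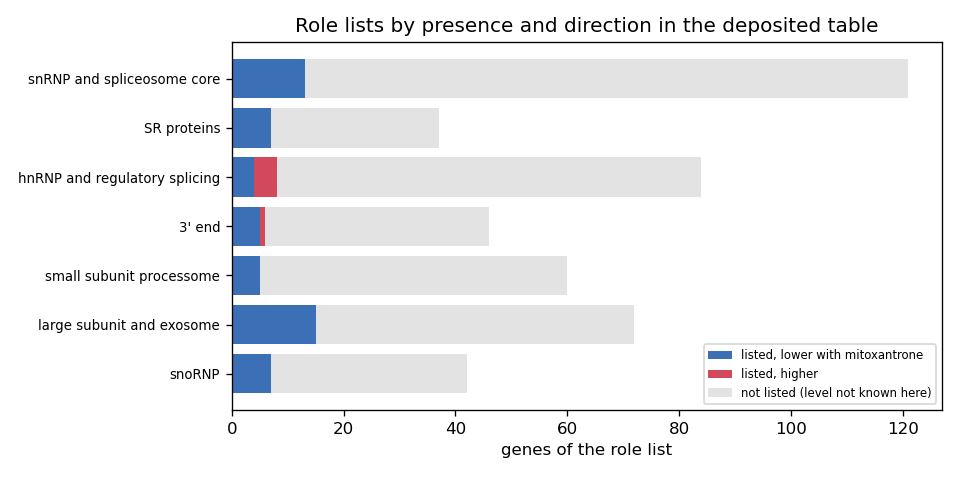
Bars give the number of genes in each role list (horizontal axis), split into genes listed and lower with mitoxantrone, listed and higher, and not listed. Listed genes of 5 lists were all lower, the regulatory splicing list split into 4 lower and 4 higher, and the grey parts are the largest part of every bar.

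SR proteins, which bind exonic enhancers and help to define exons, were lower in all 8 member rows (7 genes of 37 in the list; 30 not listed), with a median of -1.36. SRSF7 had 5589, 5726 and 5505 normalized counts in DMSO 1 to 3 and 1858, 1875 and 1814 in mitoxantrone 1 to 3, a 3.03-fold fall (log2 fold change -1.60 ± 0.07 SE; edgeR, adjusted p = 9.3e-25). The deposited table, which names no build, places SRSF7 on chromosome 2 from 38970741 to 38978636. SRSF3, which also takes part in mRNA export, had 7323, 7307 and 7417 counts with DMSO and 2557, 2836 and 2864 with mitoxantrone, a 2.67-fold fall (-1.42 ± 0.06). The libraries within each group were close and the groups far apart for both. Among the 7 listed SR genes these had the highest levels per length, with SRSF7 at 73.9 ± 0.86 FPKM and SRSF3 at 74.2 ± 1.2 in DMSO (SD, n = 3 libraries), levels that did not differ beyond their spread. TRA2B, an SR-like splicing activator, fell from 4135, 4202 and 4104 to 1807, 1724 and 1716 counts (-1.25 ± 0.07). SRSF4 fell by 1.24 and CLASRP, which interacts with the CLK4 kinase, by 1.18 on the log2 scale. SRSF12, a low-abundance family member, went from 55.6 ± 9.28 to 20.9 ± 2.35 counts. SRSF1, SRSF2, SRSF5, SRSF6, SRSF9 and SRSF11 were not listed.

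SRSF10, a splicing regulator that responds to heat shock and cell cycle state, needs care. One of its rows lies on chromosome 1 (24291294 to 24307417) and the other on the separate scaffold GL000191.1. On chromosome 1 its counts were 172, 188 and 177 with DMSO and 60.5, 80.1 and 75.5 with mitoxantrone (-1.30 ± 0.15). The scaffold row had 157, 178 and 181 against 43.5, 71.1 and 57.1 (-1.58 ± 0.16). Reads that match both places cannot be assigned to one, so both levels are uncertain, although both rows moved down.

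Promoter sequence was examined because these genes moved together. RefSeq promoters (GRCh38.p14; 250 bases before and 50 after the start, first listed start of a gene) were matched for 53 of the 65 rows, giving 41 lower and 11 higher genes. The E2F letters TTTGGCGC, TTTCCCGC or TTTCGCGC on either strand occurred in 4 of 41 lower members (9.76%), in 2.79% of all 27305 promoters and in 8.11% of the promoters of 1320 listed genes that fell. None of the 11 higher members held them. The E-box CACGTG, which reads the same on both strands, was in 4 of 41 (9.76%), against 7.43% of all promoters and 9.62% of listed genes that fell. CCAAT letters were in 36.6% of lower members, 35.7% of all promoters and 42.0% of those of listed genes that fell, and the CHR letters TTTGAA or TTCGAA in 12.2%, 16.6% and 19.9%, each on either strand. The differences between these shares were not tested, and a match describes letters only. Promoter positions are on GRCh38.p14. The deposited gene positions do not match that build, so the positions below cannot be set against them. As examples of these matches among members that fell, the following lines give the 250 bases before the start, from 5′ to 3′, with the E2F letters in capitals for SRSF10 (chr1:23980328-23980577, minus strand) and TRA2B (chr3:185938015-185938264, minus strand), and with both E-boxes in capitals for DHX35 (chr20:38962094-38962343, plus strand), a DEAH-box helicase of the spliceosome that fell from 511 ± 5.03 to 224 ± 16.8 counts.
SRSF10: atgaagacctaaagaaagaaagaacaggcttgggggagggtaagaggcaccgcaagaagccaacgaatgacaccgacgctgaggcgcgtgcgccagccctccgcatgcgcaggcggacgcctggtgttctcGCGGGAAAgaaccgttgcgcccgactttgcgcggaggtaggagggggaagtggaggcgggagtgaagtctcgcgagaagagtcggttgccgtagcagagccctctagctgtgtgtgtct
TRA2B: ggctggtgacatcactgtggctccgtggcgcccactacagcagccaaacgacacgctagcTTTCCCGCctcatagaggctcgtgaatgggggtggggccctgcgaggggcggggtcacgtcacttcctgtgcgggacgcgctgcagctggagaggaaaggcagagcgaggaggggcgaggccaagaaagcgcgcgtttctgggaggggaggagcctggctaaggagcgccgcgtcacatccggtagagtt
DHX35: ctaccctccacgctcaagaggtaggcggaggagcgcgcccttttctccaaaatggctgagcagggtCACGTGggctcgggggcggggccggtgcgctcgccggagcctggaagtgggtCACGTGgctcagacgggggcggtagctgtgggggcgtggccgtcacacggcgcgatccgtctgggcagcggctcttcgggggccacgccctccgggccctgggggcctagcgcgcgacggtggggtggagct

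Among genes of the snRNPs and the spliceosome core, 11 members were lower and 0 higher, with a median of -1.32. Of the 121 genes of this list 13 were listed, all lower, the others being CWC25 and PHF5A. SNRPA encodes the U1 snRNP protein A, which binds the U1 RNA. It had 2691, 2758 and 2667 counts with DMSO and 1054, 1001 and 1025 with mitoxantrone (2.64-fold lower; -1.40 ± 0.07). MAGOHB encodes a core subunit of the exon junction complex, the mark left on mRNA after splicing, and fell from 521 ± 26.9 to 166 ± 12.6 counts (-1.65 ± 0.11). This was the largest fall in the list, but MAGOHB is a near copy of MAGOH and reads may be shared between them. CWC22, which brings the exon junction complex to the spliceosome, fell by 1.55 and PRPF38A, a factor of spliceosome activation, by 1.53 on the log2 scale. LSM5 and LSM6, subunits of the LSm ring on U6 RNA, fell by 1.30 and 1.32 on the log2 scale. TXNL4B, related to a U5 protein, fell from 1069 ± 27.3 to 419 ± 35.9 counts, and PRPF3, of the U4/U6 snRNP, from 2007 ± 100 to 937 ± 54.5. CWC27, PPIH and BUD13 changed by close to 2-fold (-1.07, -1.04 and -1.01) and missed the stricter test (glmTreat adjusted p = 0.12, 0.18 and 0.23). In the authors' deposited table BUD13, at -1.0008, is the member nearest to their threshold.

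Of the 24 members on no role list 15 were lower and 9 higher. Among the lower ones, UPF3B, which links the exon junction complex to nonsense-mediated decay, had 927, 877 and 891 counts with DMSO and 203, 275 and 296 with mitoxantrone (3.46-fold lower; edgeR, adjusted p = 7.4e-20). ZCCHC8, a scaffold of the complex that targets nuclear RNA to the exosome, fell from 1511, 1494 and 1604 to 352, 411 and 398 counts, or 3.96-fold. In both genes mitoxantrone 1 was the lowest library. RP9, a splicing-associated protein linked to retinitis pigmentosa, fell 4.09-fold. THOC6, of the THO export complex, and the helicase DDX39A fell 2.30-fold and 2.32-fold. YTHDC1, the nuclear reader of N6-methyladenosine, went from 2463 ± 90.5 to 1187 ± 96.2 counts, which missed the 2-fold test (glmTreat adjusted p = 0.10).

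hnRNPs and cell-type-specific splicing regulators did not move as one group, with 4 members lower and 3 higher (8 of 84 listed, 4 lower and 4 higher, the other being NOVA2). HNRNPU, an abundant nuclear scaffold and splicing regulator, had the highest mean level per length among members in DMSO, 121 ± 5.2 FPKM, close to POLR2L at 115 ± 5.0. It fell from 20109, 19129 and 18498 to 8923, 9420 and 9591 counts (-1.05 ± 0.06), a change that missed the 2-fold test (glmTreat adjusted p = 0.088). QKI, an RNA-binding protein that also shapes circular RNAs, had 2570, 2434 and 2379 counts with DMSO and 807, 1023 and 1028 with mitoxantrone (2.58-fold lower). HNRNPA1L2 fell 2.42-fold, but it is a near copy of HNRNPA1, which was not listed, so its reads are uncertain. ESRP1, an epithelial splicing regulator, had only 33 reads over the DMSO libraries and 7 over the mitoxantrone libraries, 3.73-fold lower (1.62 to 9.99, exact 95% counting interval); without mitoxantrone 2 its adjusted p in edgeR was 0.057, and without mitoxantrone 3 its fitted log2 fold change went from -1.86 to -2.93.

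The higher members of this group belong to families best known from neurons and muscle. RBFOX3, the neuronal marker NeuN, went from 83.2, 91.0 and 82.8 to 215, 177 and 212 counts (2.35-fold; adjusted p = 1.1e-10 in edgeR). CELF5 went from 9.43, 13.0 and 13.8 to 69.0, 70.0 and 40.8 counts. CELF2 had 3, 2 and 1 reads in the DMSO libraries and 35, 34 and 45 in the mitoxantrone libraries, 24.0-fold higher (10.7 to 66.8, exact 95% counting interval). With mitoxantrone RBFOX3, CELF5 and CELF2 were at 1.01, 0.500 and 0.217 FPKM. NOVA2, a neuronal splicing factor without a matching term, was also higher (16.1 ± 2.55 to 45.5 ± 3.16 counts). By GENCODE 29, RBFOX3, CELF5 and CELF2 each overlap antisense genes on the opposite strand. No label says that counting used strand, so the reads of each gene and its antisense partners cannot be told apart.

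Genes of rRNA processing were lower in 12 of 13 members. The snoRNP group had 4 members, all lower, with a median of -1.49 (7 of 42 genes listed, all lower). DKC1, the pseudouridine synthase of H/ACA snoRNPs and of telomerase, had 5112, 5345 and 5095 counts with DMSO and 1845, 1831 and 1727 with mitoxantrone (2.88-fold lower; edgeR, adjusted p = 8.6e-24). Its partner GAR1 had 640, 702 and 660 against 229, 238 and 261 counts (2.74-fold). NOP58, a core protein of C/D snoRNPs, which guide ribose methylation, had 3514, 3345 and 3445 against 997, 1207 and 1241 counts (2.99-fold). DKC1, GAR1 and NOP58 had log2 fold changes of -1.53 ± 0.07, -1.46 ± 0.10 and -1.58 ± 0.08. NOLC1, a nucleolar phosphoprotein that assembles with snoRNPs, fell less, from 7435 ± 209 to 3647 ± 160 counts (-1.03 ± 0.06), and missed the 2-fold test (glmTreat adjusted p = 0.15). Their other partners NHP2, NOP10, FBL and NOP56 were not listed.

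The small subunit processome group held UTP23, UTP15 and EMG1, the last a methyltransferase of 18S rRNA precursors, with log2 fold changes of -1.37, -1.12 and -1.05. UTP15 had 786, 767 and 748 counts with DMSO and 325, 348 and 385 with mitoxantrone. DDX10 and PNO1, which lack a matching term, were lower too (-1.54 and -1.15), and 55 of the 60 genes of this list were not listed. EMG1 missed the 2-fold test (glmTreat adjusted p = 0.11). By GENCODE 29 it overlaps the listed gene C1S, which was higher, and UTP23 overlaps the listed gene RAD21 on the opposite strand (-1.42), so the origin of reads over those overlaps is uncertain.

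The RNA exosome, a multi-subunit nuclease that trims rRNA precursors and degrades RNA, had 3 listed subunits. EXOSC8 showed the largest fall of all members, from 742, 866 and 749 to 122, 131 and 153 counts (5.77-fold; -2.53 ± 0.11; edgeR, adjusted p = 6.8e-24). The deposited table places EXOSC8 on chromosome 13 from 37572953 to 37583750. EXOSC9 had 477, 560 and 539 against 209, 221 and 229 counts (2.39-fold) and EXOSC3 1105, 1131 and 1122 against 563, 487 and 495 (2.18-fold). The fold change of EXOSC8 lay below those of the other listed subunits, a difference that was not tested, and the remaining subunits were not listed. By GENCODE 29, EXOSC8 overlaps ALG5 and SUPT20H on the opposite strand, which were not listed, so the origin of reads there is uncertain. EXOSC9 overlaps the cyclin gene CCNA2 on the opposite strand by the same annotation. CCNA2 itself fell by 4.98 on the log2 scale, and reads over the overlap may come from either gene. EXOSC3 likewise overlaps the listed gene DCAF10 on the opposite strand (-1.15). Of the large subunit factors, PPAN went from 234 ± 18.6 to 114 ± 9.77 counts (glmTreat adjusted p = 0.18); it also overlaps the readthrough gene PPAN-P2RY11. ISG20, an exonuclease induced by interferon, went from 261 ± 30.5 to 119 ± 5.91 counts, and its adjusted p against 2-fold was 0.071. Beyond the members, 10 listed genes of this list were lower, among them DDX21 (-1.43), NOC3L (-1.48) and PAK1IP1 (-1.74). PIN4, which takes part in rRNA precursor processing, was the 1 rRNA processing member that was higher, at 243, 250 and 284 counts with DMSO and 638, 616 and 575 with mitoxantrone. PIN4 overlaps the listed gene ERCC6L on the opposite strand (-3.44).

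**Figure D3:**
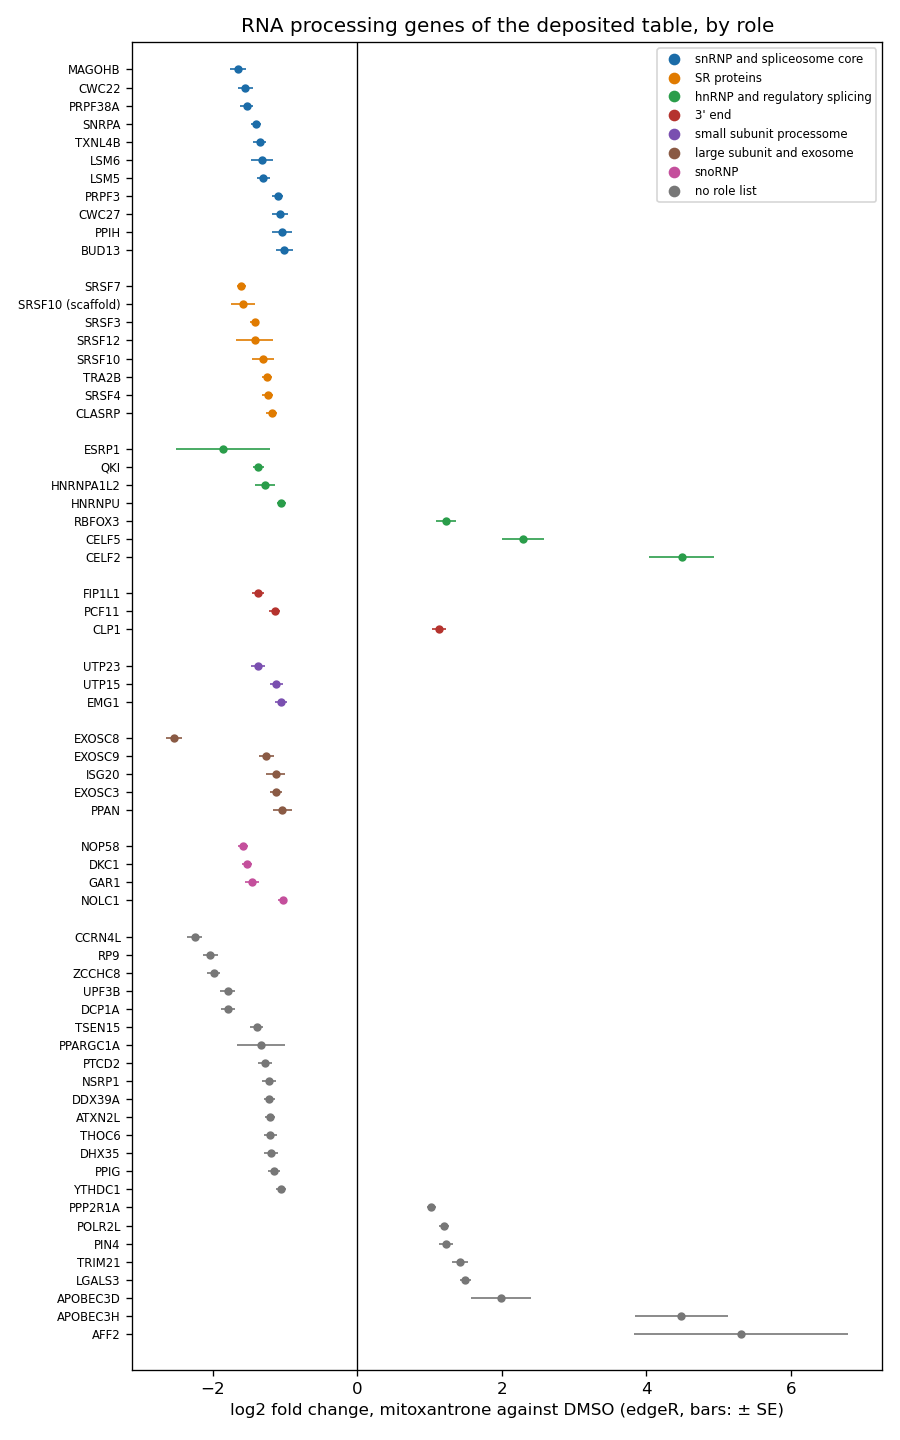
Points give the log2 fold change of 64 member rows (mitoxantrone against DMSO, horizontal axis) and bars ± 1 SE from edgeR, ordered by role and size. The spliceosome, SR, processome, exosome and snoRNP rows all lie left of 0, EXOSC8 lies farthest left at -2.53, and the widest bars belong to AFF2, ESRP1 and APOBEC3H, which had few reads.

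The list of mRNA 3-prime end formation also holds genes of capping, of the PAF and Integrator complexes and of N6-methyladenosine. Of its 46 genes 6 were listed, 5 lower and 1 higher, and 3 of these are members. The others, CPEB4, INTS6 and ZNF473, were lower (-1.07, -1.57 and -1.39). FIP1L1, of the cleavage and polyadenylation factor, had 1290, 1308 and 1225 counts with DMSO and 526, 459 and 488 with mitoxantrone (2.60-fold lower). PCF11, which acts in cleavage and termination, had 1494, 1325 and 1301 against 622, 613 and 631 counts (2.21-fold lower). CLP1, an RNA kinase of the same machinery and of tRNA splicing, rose instead, from 213, 222 and 231 to 488, 477 and 497 counts (2.19-fold; edgeR, adjusted p = 1.3e-13). The tRNA splicing endonuclease subunit TSEN15 fell 2.62-fold, so these tRNA splicing factors moved in opposite directions. By GENCODE 29, PCF11 overlaps its antisense gene PCF11-AS1. FIP1L1 overlaps LNX1 on the opposite strand and the protein-coding gene AC058822.1 on the same strand. The deposited FIP1L1 row runs from 54243810 to 55161439, so the origin of its reads is uncertain.

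Several of the higher members on no role list have other main functions. POLR2L, a small subunit shared by RNA polymerases, was the most abundant of the higher members per length, with 115 ± 5.0 FPKM in DMSO. Its counts were 2394, 2609 and 2377 against 5878, 5678 and 5396 (2.30-fold). LGALS3, the lectin galectin-3, which has also been found in the spliceosome, went from 524, 540 and 536 to 1455, 1457 and 1605 counts (2.82-fold; edgeR, adjusted p = 7.4e-21). PPP2R1A, the scaffold of phosphatase PP2A, went from 4472 ± 29.3 to 9093 ± 492 counts, with an adjusted p of 0.16 against 2-fold (glmTreat).

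The 6 members annotated to mRNA processing bodies alone split evenly. CCRN4L, the circadian gene nocturnin, fell from 803, 835 and 692 to 165, 166 and 160 counts (4.75-fold), and DCP1A, a cofactor of mRNA decapping, from 1067, 990 and 919 to 294, 251 and 317 (3.45-fold). ATXN2L fell 2.30-fold. TRIM21, an antibody receptor with ubiquitin ligase activity, rose from 153, 185 and 163 to 426, 458 and 454 counts (2.68-fold). The cytidine deaminase genes APOBEC3D and APOBEC3H had few reads: 22 over the DMSO and 70 over the mitoxantrone libraries for the former, a ratio of 4.02 (exact 95% interval 2.46 to 6.82), and 3 against 60 for the latter, a ratio of 25.3 (8.24 to 126). APOBEC3H had all 3 of its DMSO reads in DMSO 1; without that library its fitted log2 fold change went from 4.48 to 7.47, and that of APOBEC3D from 1.99 to 2.66. APOBEC3 genes are close paralogs, so their reads may be misassigned. AFF2, which also binds RNA, had 0 reads in every DMSO library and 0, 3 and 10 in mitoxantrone 1 to 3. With a floor of 3 reads over the group this is at least 5.48-fold higher, and 1 mitoxantrone library overlapped the DMSO libraries at 0. Without mitoxantrone 3 its fitted log2 fold change went from 5.31 to 3.93. Its call was lost when DESeq2 was rerun on the listed genes (adjusted p = 0.18). The authors' deposited log2 fold changes were smaller in size than the edgeR fits: 1.83 for AFF2, 3.38 for APOBEC3H and 1.78 for APOBEC3D. The same held for CELF2 (3.79) and ESRP1 (-1.41).

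**Figure D4:**
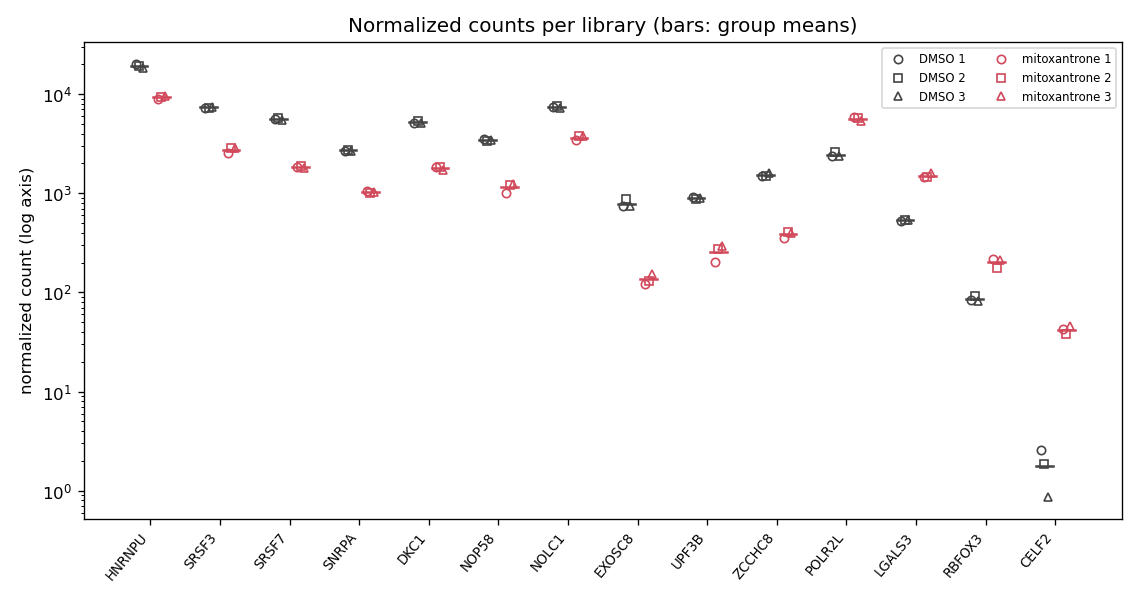
Normalized counts (vertical log axis) of 14 members are shown for each library, black for DMSO and red for mitoxantrone, with symbols for replicates 1 to 3 and bars for group means. In every gene shown the groups are apart. Mitoxantrone 1 is the lowest mitoxantrone library in UPF3B, NOP58, HNRNPU, SRSF3, NOLC1, EXOSC8, ZCCHC8 and, by little, LGALS3.

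Replicates were close for the members. The median coefficient of variation between libraries was 5.07% in DMSO and 8.07% with mitoxantrone, against 11.6% and 13.1% over all listed genes. The members also had more reads, with a median mean normalized count of 560 against 96.0. Spread at matched counts was not compared, so the closeness cannot be called a trait of the members. Within the mitoxantrone group the lower members were not evenly spread: mitoxantrone 1 was the lowest library in 33 of 52, mitoxantrone 2 in 10 and mitoxantrone 3 in 9. In the DMSO group the highest library was DMSO 1 in 18, DMSO 2 in 22 and DMSO 3 in 12. Neither order was counted over all listed genes, so neither can be called particular to the members. Without mitoxantrone 1 edgeR still called 52 members lower, 38 of them past 2-fold. The median gene span of the lower members was 23.4 kb (quartiles 14.5 and 39.7), against 28.9 kb for all lower listed genes (9.86 and 67.6).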

How the data were processed

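RNA-seq of A549 cells was analysed in 6 libraries, 3 per group; groups and replicate numbers come from the sample titles. Tools listed in the submitters' processing notes were HISAT2 2.0.1, cutadapt 1.9.1, Cufflinks 2.2.1, SAMtools 0.1.19, HTSeq 0.6.1 and DESeq2. Genome build, annotation and strandedness were not given in the sources used here, and the labels' protocols name poly(A) selection or rRNA removal without a choice. Per the file headers the authors deposited raw read counts and FPKM per gene and library, a mean normalized count over all libraries (treated as a signal value), a log2 fold change with its error, a score that divides the former by the latter, and a p-value with its adjusted value.

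A least-squares fit of the mean normalized counts on the counts returned the size factors (largest relative residual 4.8e-10), and genes of 20 FPKM or more returned the library totals. Normalized counts are counts divided by size factors; without a spike-in, a fold change is relative to the remaining transcripts. Testing used the quasi-likelihood F-test of edgeR 4.0.16 in R 4.3.3 on all 4546 rows with Benjamini-Hochberg adjustment, a threshold of 0.05 and no count filter; glmTreat tested against 2-fold. The quasi-likelihood test was also run on simulated data with a wider common spread and fewer changed genes than here, as a check of the code only. Precision is lowest for the 8 members under a mean count of 50. Alternatives used DESeq2 1.42.0, limma 3.58.1 on log2(FPKM + 0.1) or log2(FPKM + 1), other scalings, a filter of 10 counts in 3 samples, a replicate block and each library left out.

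Members, role lists and motifs were chosen with earlier results of these data known. Named were the 14 largest changes each way with non-overlapping groups, the higher one averaging 50 or more, and up to 6 of the most abundant members per role list, 46 rows in all; other members and list genes named were chosen after their values were seen. Older list symbols were matched through RefSeq synonyms, and overlaps came from GENCODE 29 by identifier (2 members had none there). Another gene overlapped 29 members, 26 of them on the opposite strand, and the text does not name every overlap. The values of 1 member are not reported here.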

Additional observations from a re-analysis of the deposited data

How the results depend on the processing

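The library-total scaling and narrower forms of the member rule were chosen after seeing the data. All 13 members higher and 52 lower were called with TMM, both kinds of totals and an adjusted p of 0.01. TMM on the listed genes moved every gene by about -0.26 on the log2 scale, and then 8 members higher and 52 lower passed against 2-fold, in place of 12 and 42. AFF2 was lost in DESeq2 and in limma (adjusted p = 0.17 and 0.29), and with the count filter AFF2 and ESRP1 were not tested. The 644 values of named members under alternatives kept their direction and call. With 1 library left out 51 to 52 members were lower; past 2-fold 37 to 42 were lower and 10 to 12 higher. Deviations of libraries that share a number correlated at -0.07, -0.08 and 0.03 across 2622 genes, so no shared deviation was seen. Whether such libraries were made together is not known, since no label says so. A replicate block gave 13 higher and 52 lower members (11 and 40 past 2-fold). Keeping the transcription rows gave 14 higher and 58 lower members, leaving out regulation of transcription as well 12 and 48, and whole terms alone 10 and 48. By construction, splicing terms alone left 1 lower member in the 3-prime end list, 0 in the processome list, 1 in the large subunit list and 0 in the snoRNP list, and rRNA processing terms alone left 1 in the spliceosome core list and 0 in the SR, hnRNP and 3-prime end lists. Among promoters of all listed genes the motif shares were 8.21% (E-box), 4.90% (E2F), 15.6% (CHR) and 37.7% (CCAAT).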
